A study of Mus musculus with 18 samples.

Results

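Axon guidance ligands and receptors were examined in brain tissue of Diversity Outbred mice, a stock bred from several founder strains so that animals differ in genotype. A gene was a member when its symbol belonged to the semaphorins (classes 3 to 7), plexins, neuropilins, ephrins, Eph receptors, Slits, Robos, netrins, Unc5 receptors or was Dcc, and when its mean over all 18 libraries was at least 10 normalized counts. The rule took 68 of 48440 genes, and 0 genes with such a symbol fell under the minimum. The lowest member was Efna4, at a mean of 16.3 normalized counts, and the highest Epha4, at 17968. By family there were 20 semaphorins, 11 plexins and neuropilins, 8 ephrins, 14 Eph receptors, 3 Slits, 4 Robos, 3 netrins, and Dcc with 4 Unc5 receptors. All 68 were found by identifier in the GENCODE M21 annotation of GRCm38, with equal symbols, as protein-coding genes, and 30 were overlapped by an annotated gene on the other strand.

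The series set mice that performed well in short-term memory against mice that performed poorly. RNA was sequenced from the prefrontal cortex (PFC) and from the tissues that the labels name MDTH and HPF, with 3 libraries from high-performing and 3 from low-performing mice in each tissue. Nothing in the labels gives an allele, a treatment, an age or a sex, the behavioural cutoff, or what was dissected beyond the tissue names, and no group was said to be pooled. The numbers 44, 88 and 165 in the library names occurred among the high performers of every tissue, 130 among the low performers of PFC and MDTH, and 163 among those of MDTH and HPF.

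Guidance molecules are named for steering growing axons, and most remain expressed in adult neurons and glia, where several act at synapses. Semaphorins bind plexins, and the secreted class 3 semaphorins mostly need a neuropilin as co-receptor. Ephrins are tethered to the membrane, ephrin-A by a lipid anchor and ephrin-B by a transmembrane segment. They bind Eph receptor tyrosine kinases, EphA mostly ephrin-A and EphB mostly ephrin-B, with Epha4 known for binding both, and signal in both directions. Slits repel axons through Robo receptors, while netrins attract through Dcc and repel through Unc5 receptors. In the thalamus, graded EphA and ephrin-A expression is known for ordering the projections to the cortex, and in the habenula Nrp2 and Robo3 are known for guiding the output tract.

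PFC libraries were estimated to hold 41156216 to 48838298 reads, those of MDTH 42941011 to 47535125 and those of HPF 76705411 to 88633786 (HPF being the deepest). A list of 11 genes of thalamic relay neurons summed to 146820.0 to 340196 normalized counts in MDTH libraries and at most 40649.5 elsewhere. The 8 cortical excitatory neuron genes summed to 107517 to 127110.0 in PFC and 10590.3 to 30690.3 in MDTH, but the HPF range of 64540.1 to 114931 overlapped that of PFC. The 8 hippocampal genes summed to 42655 to 55582 in HPF against at most 17174 elsewhere. Some libraries stood apart in their markers. The 5 choroid plexus genes summed to 146578, 124528 and 75530.0 in high replicate 1 and low replicates 2 and 3 of PFC and to 161636 in high replicate 2 of HPF, while the other 14 libraries held 1756 to 10869.7. In PFC and MDTH, library names were written in 1 style for all high and in another for all low performers, and whatever that style stands for and performance cannot be told apart there. Nothing in the labels says that these groups were prepared separately. The share of normalized counts from mitochondrial genes did not overlap between performance groups in any tissue. It was lower in high performers of PFC and MDTH and higher in those of HPF, and its part in the results was not tested. In HPF, high replicates 1 and 2 shared a lane, low replicates 1 and 2 shared another, and the third lane held a single library of each group, too few for values within a lane.

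Most of the members that passed between performance groups did so in MDTH. Of 67 members tested, 27 (40.3%) passed, 8 higher and 19 lower in high performers, where 25.0% of all genes tested passed, 12.5% higher and 12.5% lower. Passing means a Benjamini-Hochberg adjusted p below 0.05 over all genes in limma's moderated test, and each difference is the mean of high minus that of low performers in log2(normalized count + 1), a scale on which changes of low genes come out too small. The members' median log2 difference was -0.19 and that of all genes tested -0.0031. Their median size without sign was 0.53, against 0.35 over all genes. High and low libraries did not overlap for 34 of the 67, 11 with all high libraries above and 23 with all below, where 44.2% of all genes did not overlap. The higher members were 4 EphA receptors, 2 semaphorins, Plxnd1 and Unc5c, and the lower ones came from every family. In whole tissue, fewer cells of a type and less RNA per cell cannot be told apart.

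**Figure D1:**
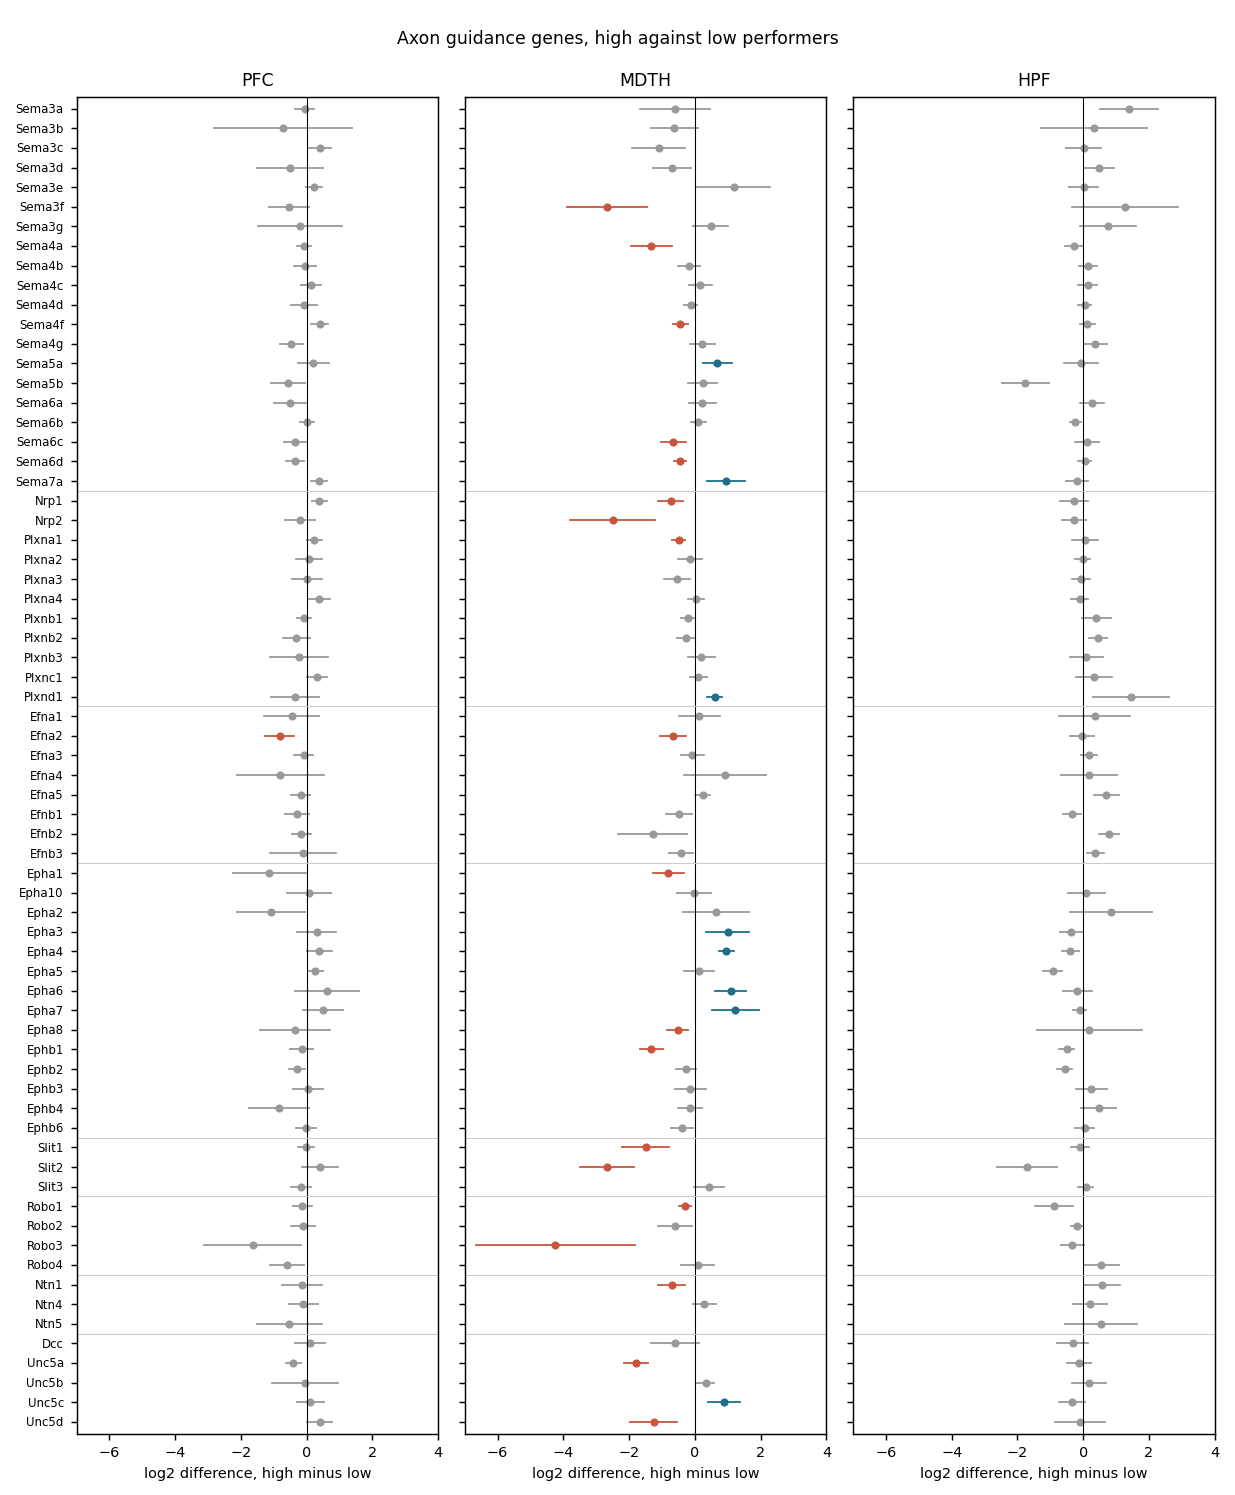
Log2 difference (high minus low performers, x axis) with its 95% interval for each axon guidance gene (y axis, grouped by family) in PFC, MDTH and HPF, from 3 against 3 libraries; blue genes passed as higher, red genes as lower and grey genes did not pass. MDTH holds 27 coloured genes, PFC 1 and HPF 0.

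The upstream sequences of the 4 members with the smallest p in MDTH are printed because these genes lead the comparison and their windows differ in a common promoter motif. Each is the 250 bases before the RefSeq transcript start, 5′ to 3′ on the gene's strand (RefSeq, GRCm38.p6), and capitals mark matches to the GC box, GGGCGG or CCGCCC on the opposite strand, with overlapping matches counted.
Unc5a (chr13:54949161-54949410, plus strand): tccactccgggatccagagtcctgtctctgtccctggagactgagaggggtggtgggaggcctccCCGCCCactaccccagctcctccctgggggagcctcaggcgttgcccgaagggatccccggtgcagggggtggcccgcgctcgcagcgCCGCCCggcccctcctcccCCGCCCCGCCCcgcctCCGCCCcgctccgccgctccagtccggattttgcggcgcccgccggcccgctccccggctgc
Epha4 (chr1:77515089-77515338, minus strand): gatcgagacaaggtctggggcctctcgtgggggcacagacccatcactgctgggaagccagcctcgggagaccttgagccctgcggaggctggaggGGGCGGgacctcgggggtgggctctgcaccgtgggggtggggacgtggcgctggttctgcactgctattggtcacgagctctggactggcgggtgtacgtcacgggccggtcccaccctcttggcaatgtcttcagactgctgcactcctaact
Ephb1 (chr9:102354694-102354943, minus strand): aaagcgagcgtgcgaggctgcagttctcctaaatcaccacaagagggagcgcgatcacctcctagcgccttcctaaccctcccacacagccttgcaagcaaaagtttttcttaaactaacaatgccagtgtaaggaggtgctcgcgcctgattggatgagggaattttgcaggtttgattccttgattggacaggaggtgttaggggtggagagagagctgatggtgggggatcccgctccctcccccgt
Slit2 (chr5:47982905-47983154, plus strand): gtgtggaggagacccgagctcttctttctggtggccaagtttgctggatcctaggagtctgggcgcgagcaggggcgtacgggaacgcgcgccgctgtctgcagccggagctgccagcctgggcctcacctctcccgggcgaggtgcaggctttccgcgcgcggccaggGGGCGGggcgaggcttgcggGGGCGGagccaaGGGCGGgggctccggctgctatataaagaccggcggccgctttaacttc
The window of Unc5a held 5 GC boxes, all on the opposite strand, that of Slit2 3, all on its own strand, that of Epha4 1 and that of Ephb1 0. G and C made up 76.8% of the Unc5a window, 69.6% in Slit2, 66.0% in Epha4 and 54.0% in Ephb1. Among members, 58 of 68 had at least 1 window in the table, 74 windows in all. A GC box was in 70.3% of these and in 32.7% of all 32851 windows, with a median G and C content of 64.4% and 52.4%. The TATA box (TATAAA, both strands) was in 2.70% of members' windows and 12.4% of all. It was found in 2 members, of which Slit2 is shown above. A core of the cAMP response element (TGACG, both strands) was in 9.46% of members' windows, Epha4 among them, and in 17.8% of all. The E-box (CACGTG) was in 5.41% and 6.02%, and the core of TCF/LEF sites (CTTTGA, both strands) in 5.41% and 13.8%, of members' and of all windows. These are counts of letters and say nothing on binding.

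**Figure D2:**
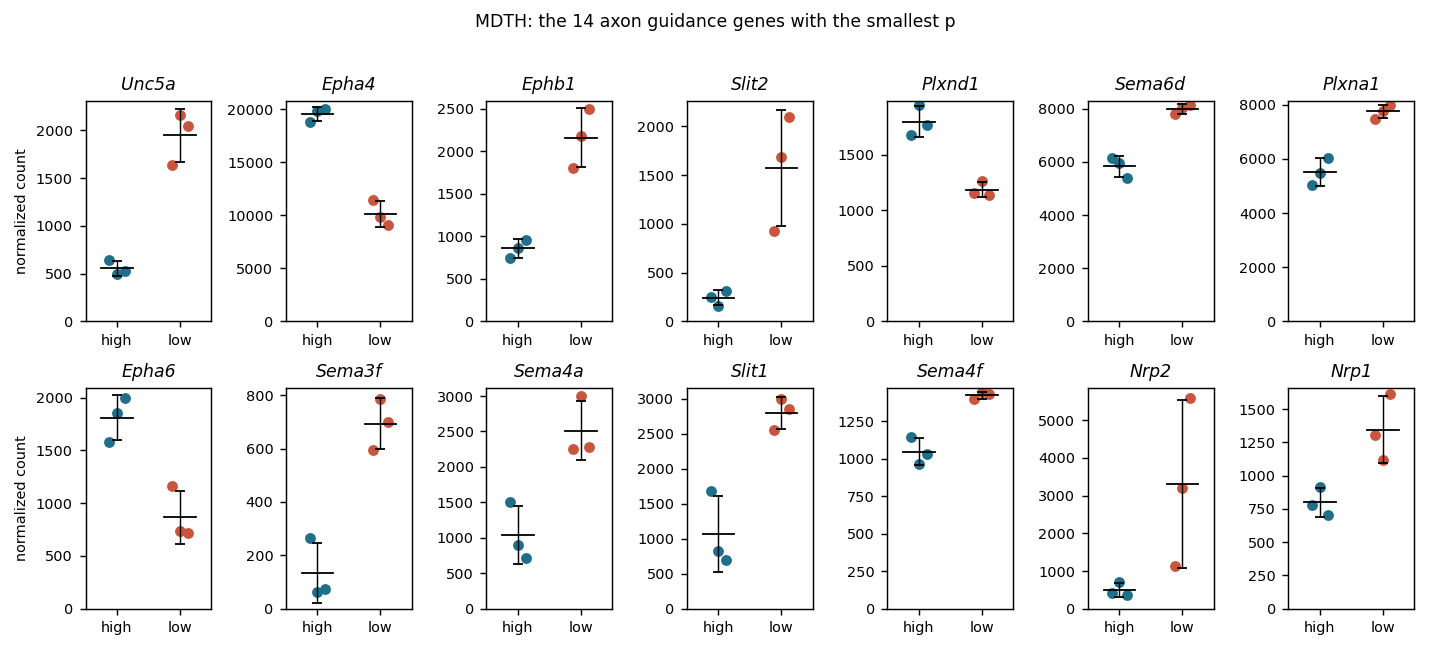
Normalized counts (y axis, from 0) of the 14 axon guidance genes with the smallest p in MDTH, by performance group (x axis); points are the 3 libraries of a group, lines their mean and bars the SD. High and low libraries do not overlap for any of the 14, and Epha4, Plxnd1 and Epha6 are those with the high performers above.

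Epha3, Epha4, Epha6 and Epha7 were higher in high performers of MDTH. Epha4 (ENSMUSG00000026235, GRCm38 chromosome 1, 77367185 to 77515088, minus strand), a receptor for ephrins of both classes, held 18776, 19888 and 20047 normalized counts in high libraries, against 11472, 9846 and 9081 in low ones. Every high library lay above every low one, and the mean was 1.93-fold higher (log2 difference 0.96, SE 0.10, limma adjusted p = 0.00282). Epha6, a brain-enriched EphA receptor, stood at 1578, 1851 and 1999 in high and 1159, 735 and 713 in low libraries (log2 difference 1.09, SE 0.20, limma adjusted p = 0.0115). Its groups did not overlap. Epha7, at 3654, 5985 and 4293 against 3056, 1379.8 and 1723, had the largest EphA difference, 1.23 (adjusted p = 0.0277). Epha3 held 615, 972 and 657 against 534, 293 and 314, a difference of 1.00 (adjusted p = 0.0390). In both genes low replicate 1 was the highest of the low libraries. Epha3 failed to pass without high replicates 2 and 3 or low replicates 2 and 3 (adjusted p = 0.0743 to 0.124), and Epha7 without high replicates 2 and 3 or low replicates 2 and 3 (adjusted p = 0.0668 to 0.0951).

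Not all Eph receptors followed that direction. Ephb1 (ENSMUSG00000032537, GRCm38 chromosome 9, 101922128 to 102354693, minus strand), an EphB receptor for ephrin-B ligands, held 747, 865 and 960.0 normalized counts in high and 1799, 2179 and 2495 in low libraries. It was 2.52-fold lower in high performers without overlap (log2 difference -1.33, SE 0.15, limma adjusted p = 0.00366). Epha1 was lower by a log2 difference of -0.81 (adjusted p = 0.0261), from 526, 569 and 675 in low to 409, 261 and 347 in high libraries. Epha8 was lower at -0.53 (adjusted p = 0.0337). The calls of Epha1 and Epha8 were lost without high replicates 2 and 3 or low replicates 2 and 3 (adjusted p = 0.0610 to 0.0968) and without high replicates 1, 2 and 3 or low replicates 1 and 3 (adjusted p = 0.0618 to 0.0919), respectively. Of 14 Eph receptors, 4 were thus higher, 3 lower and 7 did not pass, among them Epha5 at 0.13 and Ephb2 at -0.27. Their median was -0.08. Reads of these paralogs share sequence in the kinase domain, and how the authors' counting split such reads was not given in the sources used here.

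Among the 8 ephrins, the Eph ligands, 1 was lower and 0 higher in MDTH. Efna2, a lipid-anchored ephrin, held 223, 282 and 296 normalized counts in high and 401, 442 and 418 in low libraries (log2 difference -0.66, SE 0.16, limma adjusted p = 0.0264), groups that did not overlap. Its call was lost without high replicates 1 and 2 or low replicates 1, 2 and 3 (adjusted p = 0.0502 to 0.0861), that is in 5 of the 6 fits with 1 library left out. Efnb2, the ephrin-B of neurons and arteries, stood at 801, 228 and 279.8 against 998, 1035 and 727, with high replicate 1 among the low libraries, and did not pass (log2 difference -1.29, adjusted p = 0.0748). Efna5, a ligand known for thalamocortical mapping, was at 0.23 (95% interval -0.01 to 0.47, adjusted p = 0.134).

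Both Slit1 and Slit2 were lower in high performers of MDTH. Slit2 (ENSMUSG00000031558, GRCm38 chromosome 5, 47983138 to 48307733, plus strand), a secreted repellent, held 246, 163 and 315 normalized counts in high and 930.2, 1690.3 and 2098 in low libraries. All low libraries lay far above all high ones, and the mean was 6.52-fold lower in high performers (log2 difference -2.67, SE 0.35, limma adjusted p = 0.00466). Slit1, which the brain expresses more than other organs, stood at 1686, 820.4 and 697 against 2547, 3000.5 and 2846 (log2 difference -1.50, SE 0.31, limma adjusted p = 0.0152). High replicate 1 was the highest of its group, and the call was lost without high replicate 2 or low replicates 2 and 3 (adjusted p = 0.0524 to 0.0574). The third Slit was not lower: Slit3 held 830.1, 1153 and 1169 against 912, 624 and 791, a log2 difference of 0.44 (adjusted p = 0.137).

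Of the 4 Slit receptors, Robo1 and Robo3 were lower. Robo3, a divergent Robo of commissural and habenular axons, had the largest difference of all members, at 25.3, 26.6 and 44.0 normalized counts in high and 129.7, 543 and 3113 in low libraries (log2 difference -4.24, SE 1.02, limma adjusted p = 0.0249). The low libraries spanned from 129.7 to 3113, and the call was lost without high replicates 1, 2 and 3 or low replicate 2 (adjusted p = 0.0528 to 0.0748). Robo1, the main Slit receptor with Robo2, differed little but evenly, at 4960.2, 5326 and 5501 against 6052, 6528 and 6705 (log2 difference -0.29, SE 0.08, limma adjusted p = 0.0346), and did not pass without high replicates 1, 2 and 3 or low replicates 2 and 3 (adjusted p = 0.0592 to 0.117). Robo2 did not pass (log2 difference -0.60, adjusted p = 0.0855), nor did Robo4, the endothelial member (log2 difference 0.08).

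Netrin receptors split in MDTH. Unc5a (ENSMUSG00000025876, GRCm38 chromosome 13, 54949411 to 55006018, plus strand), a repulsive netrin receptor, had the smallest p of all members, at 646, 499 and 526 normalized counts in high and 1633, 2163 and 2043 in low libraries. Its groups were far apart, with a mean 3.49-fold lower in high performers (log2 difference -1.80, SE 0.15, limma adjusted p = 0.00270). Unc5d was lower at 775, 972 and 453 against 1322, 2171 and 1626 (log2 difference -1.26, adjusted p = 0.0245), while Unc5c, of the same family, was higher at 5244, 4502 and 4093 against 3389, 2342 and 1902 (log2 difference 0.89, adjusted p = 0.0227). Unc5d lost its call without low replicates 2 and 3 (adjusted p = 0.0762 to 0.0764) and Unc5c without high replicates 1 and 2 or low replicates 2 and 3 (adjusted p = 0.0524 to 0.0712). Unc5b, at 0.33 (adjusted p = 0.0656), and the attractive receptor Dcc, at 572, 415 and 252 against 479.8, 727 and 602 (log2 difference -0.60, adjusted p = 0.191), did not pass. The ligand Ntn1 was lower, at 542, 547 and 428 against 681, 952 and 862 (log2 difference -0.71, SE 0.17, limma adjusted p = 0.0246), and lost its call without high replicates 2 and 3 or low replicates 2 and 3 (adjusted p = 0.0521 to 0.0875). Ntn5 was left out of the fit, at a mean of 4.09 in MDTH.

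Of 20 semaphorins in MDTH, 5 were lower, 2 were higher and 13 did not pass (median -0.16). Of all genes tested there, 12.5% were lower and 12.5% higher. Sema3f, a secreted ligand that acts through Nrp2, held 265, 63.7 and 73.0 normalized counts in high and 594, 786 and 699.8 in low libraries (log2 difference -2.67, SE 0.51, limma adjusted p = 0.0126). High replicate 1 stood well above the other high libraries, still below every low one, and the call was lost without low replicate 3 (adjusted p = 0.0504). Sema4a, a membrane semaphorin, stood at 1506, 894 and 720.1 against 2258, 2997 and 2279 (log2 difference -1.33, SE 0.27, limma adjusted p = 0.0145), and its call was lost without high replicate 2 or low replicate 2 (adjusted p = 0.0511 to 0.0512). Sema6d, a transmembrane ligand of Plxna1, was lower by less but evenly, at 6144, 5949.9 and 5396 against 7794, 8019 and 8154 (log2 difference -0.46, SE 0.08, limma adjusted p = 0.00829). Sema4f was at -0.45 (adjusted p = 0.0187) and Sema6c at -0.66 (adjusted p = 0.0246). They were lost without high replicates 2 and 3 or low replicates 2 and 3 (adjusted p = 0.0540 to 0.0694) and without high replicates 1 and 2 or low replicates 1 and 3 (adjusted p = 0.0533 to 0.0888). The higher semaphorins were Sema7a, a lipid-anchored member, at 6646, 7368 and 9993 against 5695, 3060.0 and 3881 (log2 difference 0.95, adjusted p = 0.0301), and Sema5a, at 10316, 6163 and 9798 against 5419, 5451 and 5172 (log2 difference 0.68, adjusted p = 0.0388). Neither passed in every fit: Sema7a failed without high replicates 2 and 3 or low replicates 2 and 3 (adjusted p = 0.0715 to 0.0969), and Sema5a without high replicates 1 and 3 or low replicates 1, 2 and 3 (adjusted p = 0.0787 to 0.115).

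Of the semaphorin receptors in MDTH, 3 were lower and 1 was higher of 11. Both neuropilins were lower. Nrp2 held 424, 704 and 371 normalized counts in high and 1137, 3194 and 5591 in low libraries (log2 difference -2.50, SE 0.55, limma adjusted p = 0.0188), with low replicate 3 at more than any other MDTH library. Nrp1, the co-receptor for Sema3a, stood at 780.1, 917 and 701 against 1304, 1119 and 1613 (log2 difference -0.74, SE 0.17, limma adjusted p = 0.0198). The call of Nrp2 was lost without high replicate 3 or low replicates 2 and 3 (adjusted p = 0.0531 to 0.0622) and that of Nrp1 without high replicate 3 or low replicate 3 (adjusted p = 0.0598 to 0.0651). Plxna1, a signalling partner of neuropilins, was lower, at 5039, 5475 and 6047 against 7486, 7766 and 7995 (log2 difference -0.49, SE 0.09, limma adjusted p = 0.00959). Plxnd1, the receptor for Sema3e, was higher, at 1677, 1945 and 1771 against 1153, 1264 and 1141 (log2 difference 0.60, SE 0.10, limma adjusted p = 0.00788), but had an adjusted p of 0.282 when all 18 libraries shared 1 estimate of the spread. Its ligand Sema3e was at 1005, 3635 and 2972 against 898, 769.7 and 1366, overlapping groups that did not pass (log2 difference 1.17, adjusted p = 0.112). Plxna2, Plxna4 and Plxnc1 were at -0.16, 0.04 and 0.11.

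Sums of some marker lists, but not of all, differed between performance groups of MDTH without overlap. The 8 habenular neuron genes summed to 1800.0, 2131 and 1588 normalized counts in high and 4952, 11777 and 29779 in low libraries, and 4 of 8 were lower, Pou4f1 by a log2 difference of -5.03 (adjusted p = 0.0172). All 8 had a mean of at least 10 over the MDTH libraries, and none was at 0 in any of them. Low replicate 3 was the highest for this list, for Robo3, for Nrp2 and for Slit2, and low replicate 1 the lowest of the low libraries for all of them. The 8 inhibitory neuron genes summed to 2610.4, 2279.9 and 2777 in high and 24767, 6561 and 5812 in low libraries, with 3 of 8 lower. The other 5 did not pass and went both ways, Gad1 at -2.01, Npy at -1.23, Vip at 0.21, Pvalb at 0.35 and Lhx6 at 0.74. Sums of the 11 thalamic relay neuron genes were higher in high performers, at 296865, 339828 and 340196 against 215908, 148833 and 146820.0 in low libraries. Of the 11, 7 were higher and 1, Tcf7l2, lower. As for Epha3, Epha4 and Epha7, low replicate 1 had the highest thalamic sum of its group. Sums of the 8 cortical excitatory neuron genes did not overlap either, at 24421, 24462 and 30690.3 in high and 18932, 10590.3 and 13533 in low libraries. Of 7 tested by limma, 1 passed, Rorb, higher at 1.31 (adjusted p = 0.00802). The other 6 went both ways, from -0.47 for Neurod6 to 1.20 for Slc17a7. Astrocyte sums overlapped (160127 to 206946 and 166149 to 177980.0). Of the 6 astrocyte genes, 2 passed by limma, both lower, Gfap at -1.73 (adjusted p = 0.0178) and Aqp4 at -1.003 (adjusted p = 0.0304). The other 4 did not pass, Gja1 at -0.24, Aldh1l1 at 0.04, Slc1a3 at 0.13 and Slc1a2 at 0.25. Oligodendrocyte sums were 268763 to 299352 and 296824 to 347384, and endothelial sums 5934 to 9223 and 6749 to 7870.2, in high and low libraries. Mitochondrial genes made up 6.40, 5.53 and 5.79% of normalized counts in high and 8.12, 6.52 and 8.52% in low libraries. The part of these cell types and of the mitochondrial share in the members' differences was not tested.

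**Figure D3:**
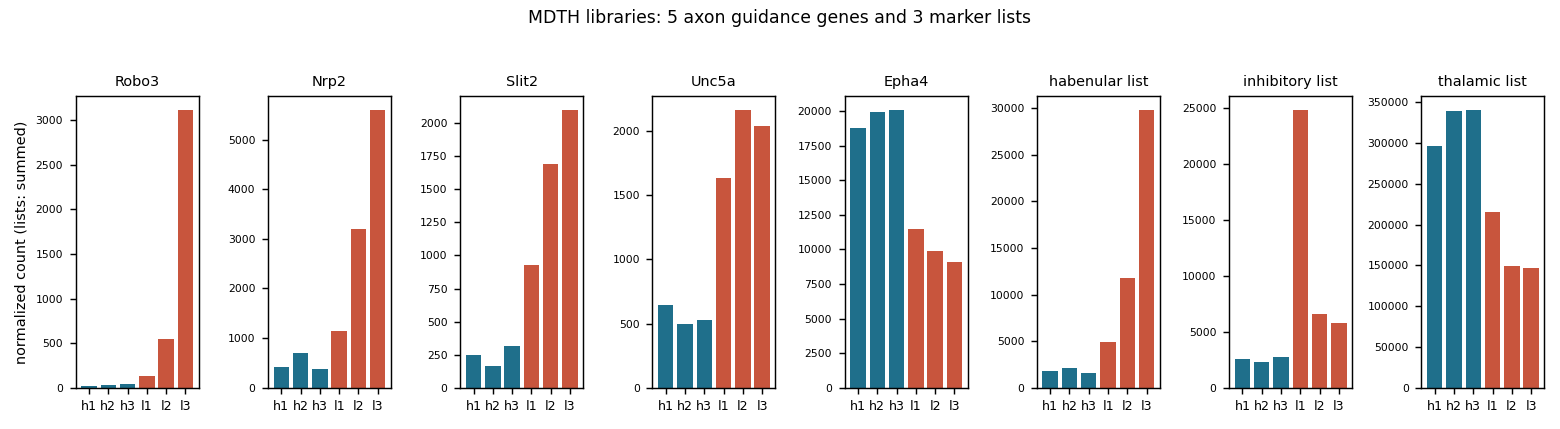
Normalized counts (y axis, from 0, own scale in each panel) in the 6 MDTH libraries (x axis, h1 to h3 high and l1 to l3 low performers, blue and red) for Robo3, Nrp2, Slit2, Unc5a and Epha4 and for the summed habenular, inhibitory and thalamic marker lists. Robo3, Nrp2, Slit2 and the habenular list share the order of the low libraries, and Unc5a is lower in all high libraries with little spread.

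Other genes of the guidance pathways were followed through 2 lists. Of 37 co-receptors and further ligands, 5 were higher and 7 lower in MDTH (median -0.10), a share of 32.4% beside the 25.0% of all genes. Wnt5a, a repellent for the Ryk receptor, was at -1.03 (adjusted p = 0.00682), Ntng1, a netrin-G of thalamic axons, at 1.17 (adjusted p = 0.00829), Rgma, a ligand of neogenin, at -0.90 (adjusted p = 0.0109) and the adhesion protein gene Dscaml1 at -1.28 (adjusted p = 0.0120) on the log2 scale. Of 51 intracellular signalling genes, 8 were higher and 10 lower (median -0.04), a share of 35.3%. Srgap3, a GTPase-activating protein that binds Robo1, was at -0.96 (adjusted p = 0.00576) and the GTPase gene Cdc42 at 0.57 (adjusted p = 0.00588) on the log2 scale. Chn1, the Rac regulator downstream of Epha4, was higher at 0.56 (adjusted p = 0.00627).

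In PFC, the member Efna2 passed and no other did. Of 68 tested, 1 (1.47%) was lower and 0 higher, where 5.85% of all genes passed by limma, 3.22% higher and 2.63% lower. At an unadjusted p under 0.05 there were 21 members (30.9%, beside 24.1% of all genes). Mitochondrial genes made up 5.59, 5.25 and 5.44% of normalized counts in high and 8.39, 8.25 and 8.79% in low libraries of PFC, without overlap. Efna2 held 213, 219 and 226 normalized counts in high and 434, 435 and 314 in low libraries (log2 difference -0.83, SE 0.19, limma adjusted p = 0.04999), and its groups did not overlap. Efna2 sat at the threshold: its call was lost without each of the 6 libraries in turn (adjusted p = 0.0779 to 0.158). Groups did not overlap for 18 of 68 members, 7 with the high libraries above, where 30.9% of all genes did not. The members' median log2 difference in PFC was -0.11 and that of all genes -0.0089.

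The members nearest to passing in PFC went both ways. Unc5a stood at 5707, 5876 and 6368 normalized counts in high and 8946, 7246 and 7641 in low libraries (log2 difference -0.40, SE 0.10, limma adjusted p = 0.0622), the direction it had in MDTH. Nrp1 was at 3255, 3135 and 3639 against 2342, 2697 and 2623 (log2 difference 0.39, SE 0.10, limma adjusted p = 0.0647), and Sema4f at 2136, 2585 and 2508 against 1946, 1830.2 and 1691 (log2 difference 0.40, SE 0.11, limma adjusted p = 0.0773). For these 3 genes every library of a group lay on its own side. Smallest in p of their families were Epha5 (log2 difference 0.27, adjusted p = 0.146), Robo4 (-0.59, adjusted p = 0.161), Slit2 (0.42, adjusted p = 0.319) and Ntn5 (-0.53, adjusted p = 0.481). Other settings gave more calls. Scaling libraries to equal totals gave 4 members that passed, beside 8.25% of all genes. A fit to all 18 libraries gave 4, beside 13.9%, and leaving out low replicate 2 gave 4, beside 7.30%.

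Low replicate 2 of PFC held the highest value of the 6 libraries for 24 of 68 members, while the others did so for 5 to 13. It held 9348 normalized counts of Efnb3, an ephrin-B of myelin and neurons, against 2739.8 to 5261 in the others. Ephb4, of vessels, was at 514 there and at most 227 in the others. The same library had the highest oligodendrocyte sum, 538823 normalized counts against at most 335989 in the other PFC libraries, and the highest endothelial sum, 8828 against at most 7155. The 6 microglia genes summed to 9786, 11349 and 11806 in high and 12235, 15052 and 14118 in low libraries of PFC, without overlap. Of the 6, 2 passed by limma, both lower, P2ry12 at -0.61 (adjusted p = 0.0288) and C1qa at -0.89 (adjusted p = 0.0340). The other 4 did not pass, Csf1r at -0.23, Cx3cr1 at -0.07, Tmem119 at 0.02 and Aif1 at 0.21. Sema3b, a secreted semaphorin, was high in 3 libraries, at 621, 135.9 and 88.7 in high and 108, 701 and 438 in low libraries of PFC. The 3 highest were the 3 PFC libraries with the highest choroid plexus sums, and in HPF the highest Sema3b value, 468 in high replicate 2, was again in the library with the highest choroid plexus sum. The part of these cells in the values was not tested. Robo3 spread widely in PFC too, at 664, 575 and 424 against 2545, 567 and 3413 (log2 difference -1.64, adjusted p = 0.167).

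Of the pathway lists in PFC, 1 co-receptor or ligand was higher and 2 were lower of 37, and 1 signalling gene was higher and 3 lower of 51, 8.11% and 7.84% beside 5.85% of all genes. Rgma was at -0.73 (adjusted p = 0.0136), the adhesion molecule Chl1 at 0.68 (adjusted p = 0.0195), the latrophilin Adgrl1 at -0.50 (adjusted p = 0.0332) and Adgrl3, which did not pass, at 0.35 (adjusted p = 0.0551) on the log2 scale. Dpysl3, of the collapsin response mediators, was at -0.46 (adjusted p = 0.0218), the actin regulator Enah at -0.49 (adjusted p = 0.0308), the kinase Fyn at -0.37 (adjusted p = 0.0460) and Chn1 at 0.51 (adjusted p = 0.0460). Rgma and Dpysl3 were lower and Chn1 higher in high performers of both PFC and MDTH, where Dpysl3 was at -0.71 (adjusted p = 0.00686).

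In HPF, 0 of 67 members passed by limma, where 0.0166% of all genes did (0.0111% higher and 0.00553% lower), and 21 members (31.3%, beside 13.3% of all genes) had an unadjusted p under 0.05. Epha1 was left out of the fit, at a mean of 8.77 normalized counts. High and low libraries did not overlap for 21 members, 9 with the high libraries above and 12 below, where 20.0% of all genes did not overlap. Mitochondrial genes made up 7.19, 6.51 and 8.63% of normalized counts in high and 4.66, 6.25 and 6.14% in low libraries, the opposite order to PFC and MDTH. The median log2 difference was 0.05, against -0.0071 over all genes.

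The 3 smallest p of members in HPF belonged to Eph receptors and an ephrin. Epha5, a receptor for ephrin-A ligands, held 7733, 8627 and 6471 normalized counts in high and 15333, 14754 and 13132 in low libraries (log2 difference -0.93, SE 0.12, limma adjusted p = 0.0737), a gap wider than the spread within either group. Ephb2, an EphB receptor of excitatory synapses, stood at 1412, 1571 and 1358 against 2150.4, 2256 and 2021 (log2 difference -0.57, SE 0.09, limma adjusted p = 0.127). Efnb2 differed the other way, at 795, 931 and 804 against 546, 465 and 465 (log2 difference 0.78, SE 0.13, limma adjusted p = 0.127). Sema5b was at 882, 699.9 and 471 against 3066, 1518 and 2435 (log2 difference -1.76, SE 0.31, limma adjusted p = 0.135), the largest difference of a member in HPF. All 4 had groups without overlap, and none passed. Further members with the smallest p of their families were Slit2 (log2 difference -1.71, adjusted p = 0.186), Plxnb2 (0.44, adjusted p = 0.228), Robo1 (-0.88, adjusted p = 0.243), Ntn1 (0.57, adjusted p = 0.361) and Unc5c (-0.35, adjusted p = 0.421). With all 18 libraries in 1 fit, 6 members passed, beside 1.45% of all genes, 5 of them lower, Epha5 and Sema5b among them at adjusted p = 0.0122 and 0.00769.

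No gene of either pathway list passed in HPF by limma (8 of 37 and 11 of 51 at an unadjusted p under 0.05, 21.6% and 21.6% beside 13.3% of all genes). The smallest p among co-receptors and ligands were those of Adgrl3, at 0.51 (adjusted p = 0.137), Flrt1, at 0.91 (adjusted p = 0.139), Adgrl2, at 1.69 (adjusted p = 0.149), and Tenm3, at 1.09 (adjusted p = 0.185), all of them adhesion molecules that bind one another's families. Among signalling genes they were those of Sh2d3c, at -0.67 (adjusted p = 0.205), cofilin (Cfl1), at -0.38 (adjusted p = 0.206), Limk2, which phosphorylates cofilin, at -0.28 (adjusted p = 0.228), and Abl1, at 0.24 (adjusted p = 0.291) on the log2 scale. Beside these values, cortical excitatory neuron genes summed to 64540.1 to 78928 normalized counts in high and 94571 to 114931 in low libraries of HPF, ranges that did not overlap. The part of those cells and of the mitochondrial share was not tested.

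Whether a performance difference depended on the tissue was tested as an interaction, 1 difference minus another, in a limma fit to all 18 libraries. Between MDTH and PFC 9 of 68 members passed, all with the lower value in MDTH, where 3.41% of all genes passed, 0.871% higher and 2.54% lower. Between MDTH and HPF it was 25 (8 higher and 17 lower in MDTH, with 19.0% of all genes, 10.5% higher and 8.52% lower), and between HPF and PFC 8 (5 higher and 3 lower in HPF, with 9.14% of all genes, 3.37% higher and 5.77% lower). Treating libraries that share a name number as paired raised the counts of members and of all genes in each contrast. It gave 11 for MDTH and PFC (5.66% of all genes), 30 for MDTH and HPF (27.4%) and 14 for HPF and PFC (13.3%). The 3 contrasts share libraries, so each is given by its own values. The mitochondrial share moved in opposite directions with performance in HPF and in the other tissues, and its part in these contrasts was not tested.

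Unc5a and Slit2 show the contrast of MDTH with PFC. The high minus low difference of Unc5a was -1.80 in MDTH, -0.40 in PFC and -0.14 in HPF, and MDTH minus PFC was -1.40 (adjusted p = 0.00218) and minus HPF -1.66 (adjusted p = 0.000166). For Slit2 it was -2.67 in MDTH and 0.42 in PFC, an interaction of -3.09 (adjusted p = 0.00589), and -1.71 in HPF, which itself differed from PFC by -2.12 (adjusted p = 0.0251). Slit1 differed from PFC by -1.48 (adjusted p = 0.0178) and from HPF by -1.41 (adjusted p = 0.00680). Ephb1, Nrp1 and Sema4f in MDTH also lay below their PFC differences, with interactions of -1.18 (adjusted p = 0.00499), -1.13 (adjusted p = 0.0148) and -0.85 (adjusted p = 0.00314). Sema4f was also below HPF, at -0.57 (adjusted p = 0.00761). Between MDTH and HPF, Ephb1 passed too, in all 18 fits with 1 library left out. Nrp1 and Sema4f had all high libraries above all low ones in PFC and below them in MDTH. Sema4a (-1.26, adjusted p = 0.0195) and Nrp2 (-2.30, adjusted p = 0.0397) were nearer to the threshold in the contrast with PFC. In that with HPF both passed in all 18 fits with 1 library left out.

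The performance differences of Epha4 and Epha5 in HPF were unlike those in both other tissues. For Epha4 the difference was 0.96 in MDTH, 0.39 in PFC and -0.39 in HPF, where the 3 high libraries held 23289, 29495 and 23757 normalized counts and the low ones 34719, 32032 and 33182. The excess of MDTH over HPF was 1.35 (adjusted p = 0.000382) and the difference of HPF from PFC -0.78 (adjusted p = 0.0213). For Epha5 the difference was 0.13 in MDTH, 0.27 in PFC and -0.93 in HPF, with MDTH minus HPF at 1.06 (adjusted p = 0.00469) and HPF minus PFC at -1.20 (adjusted p = 0.00574). Sema5b, at 0.24 in MDTH and -1.76 in HPF, had an interaction of 2.00 (adjusted p = 0.00303). Sema3f, at -2.67 and 1.27, and Efnb2, at -1.29 and 0.78, had opposite signs in these tissues, with interactions of -3.94 (adjusted p = 0.00444) and -2.07 (adjusted p = 0.00548). Between HPF and PFC, Efna5 was at 0.89 (adjusted p = 0.00326), Robo4 at 1.14 (adjusted p = 0.0254), Sema4g at 0.85 (adjusted p = 0.0382), Plxnb2 at 0.75 (adjusted p = 0.0386) and Efna2 at 0.77 (adjusted p = 0.0396). Of these, Efna5 and Epha5 passed in all 18 fits with 1 library left out. HPF libraries differed from the others in name style, lane tag and depth, which cannot be told apart from the tissue in contrasts with HPF.

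**Figure D4:**
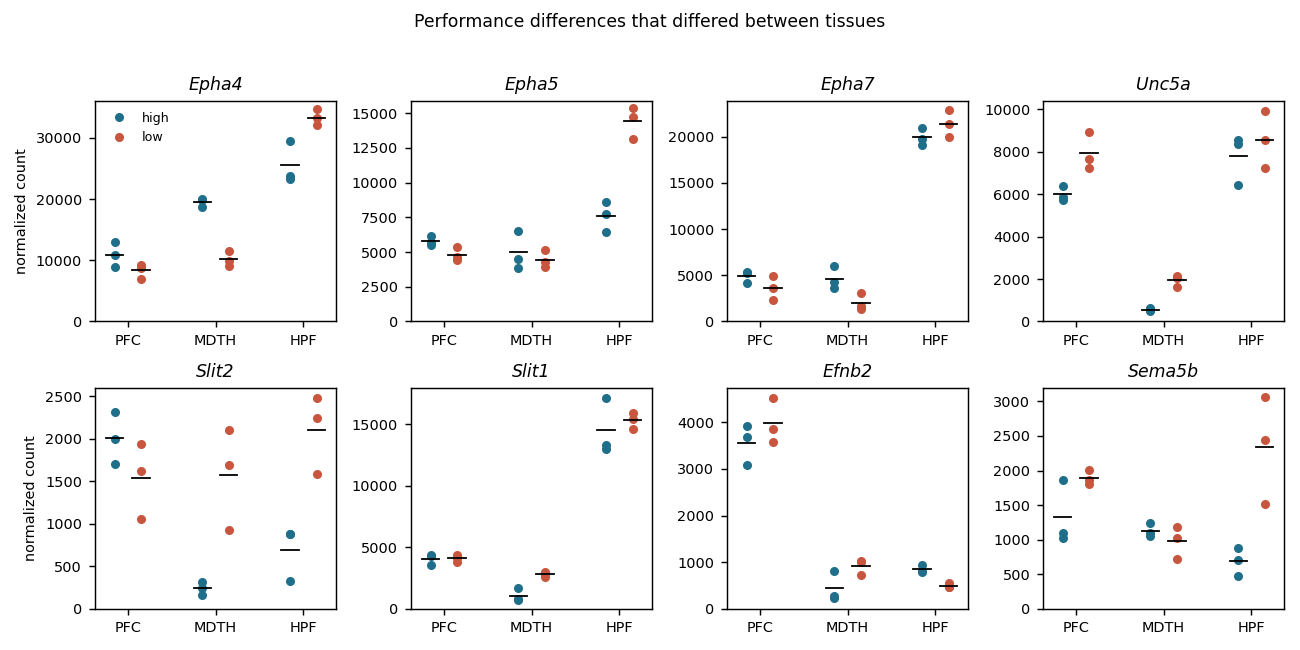
Normalized counts (y axis, from 0) of 8 axon guidance genes in PFC, MDTH and HPF (x axis); points are the 3 libraries of high (blue) and low (red) performers and lines their means. Epha4 is above in high performers of MDTH and below in those of HPF, and Unc5a is low in all MDTH libraries, lowest in those of high performers.

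More members passed between tissues than between performance groups. Averaged over both groups, 41 of 68 passed between MDTH and PFC (17 higher and 24 lower in MDTH, 60.3% beside 40.7% of all genes, 20.3% higher and 20.4% lower). Between MDTH and HPF 51 passed (23 higher and 28 lower, 75.0% beside 58.1%, 29.1% higher and 29.0% lower), and between HPF and PFC 44 (20 higher and 24 lower in HPF, 64.7% beside 45.5%, 21.8% higher and 23.7% lower). Ntn5, with a mean under 10 in MDTH, and Epha1, with a mean under 10 in HPF, are among those counted. Among low performers alone, with 3 libraries per tissue, 28 passed between MDTH and PFC (24.2% of all genes). Between MDTH and HPF it was 43 (47.0%) and between HPF and PFC 38 (37.0%). Among high performers alone it was 38 (30.7%), 39 (46.5%) and 35 (31.0%), in the same order. The highest mean lay in PFC for 20, in MDTH for 22 and in HPF for 26 members. The median size without sign was 0.60, 0.76 and 0.64 on the log2 scale for the 3 pairs, in the order given, against 0.29, 0.45 and 0.34 over all genes.

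MDTH stood out by Epha1, Epha8, Sema4g and Sema6a. Epha1, at normalized counts of 18.7 ± 9.95 in PFC, 465 ± 153 in MDTH and 8.77 ± 4.22 in HPF (SD, n = 6 each), was 24.8-fold and 53.0-fold higher in MDTH (log2 difference from PFC 4.65, adjusted p = 1.05e-08), and no test is given against HPF, where its mean was under 10. Its lowest, median and highest MDTH libraries held 261, 467 and 675, all above every other library. Epha8 held 314 ± 139 in PFC, 2285 ± 572 in MDTH and 162 ± 139 in HPF (SD, n = 6 each; log2 differences 2.94, adjusted p = 1.39e-05, and 4.09, adjusted p = 2.20e-07). Sema4g, a transmembrane semaphorin, held 1552 ± 356 in PFC, 7036 ± 1197 in MDTH and 1067 ± 193 in HPF (SD, n = 6 each; log2 differences 2.19, adjusted p = 6.93e-10, and 2.72, adjusted p = 3.74e-11), and Sema6a 1318 ± 412 in PFC, 3687 ± 705 in MDTH and 532 ± 87.0 in HPF (log2 differences 1.51, adjusted p = 2.37e-07, and 2.78, adjusted p = 1.42e-10). Robo1 was also highest there, 2.44-fold over PFC (log2 difference 1.28, adjusted p = 9.98e-07). Epha1 is overlapped by genes on the other strand, among them Zyx, and the use of strand in the counting was not given in the sources used here.

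Lowest in MDTH were Ntn5, Sema3a, Robo3 and Unc5a. Ntn5 held 248 ± 104 in PFC, 4.09 ± 2.19 in MDTH and 175 ± 72.5 in HPF normalized counts (SD, n = 6 each), with every MDTH library below all others. It passed the minimum through PFC and HPF alone, so these levels are given without a test. Sema3a, a secreted repellent for cortical axons, held 1050.3 ± 88.6 in PFC, 27.7 ± 10.4 in MDTH and 112 ± 69.3 in HPF (SD, n = 6 each), 37.9-fold higher in PFC than in MDTH (log2 difference -5.28, adjusted p = 9.14e-11) and lower in HPF than in PFC by a log2 difference of -3.45 (adjusted p = 2.03e-08). All 6 PFC libraries, 928 to 1131, lay above all others. Unc5a was at -2.73 (adjusted p = 1.39e-11) against PFC and -2.97 (adjusted p = 3.29e-12) against HPF. Robo3 was at -2.79 (adjusted p = 0.00101) and -3.53 (adjusted p = 7.40e-05). Among low performers alone neither passed, at -1.49 (adjusted p = 0.347) and -1.58 (adjusted p = 0.240).

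HPF stood out by EphA receptors, Slit1 and Nrp2. Epha7 held 4280.4 ± 1153 in PFC, 3348 ± 1705 in MDTH and 20672 ± 1349 in HPF normalized counts (SD, n = 6 each; log2 difference 2.32, adjusted p = 1.20e-07 from PFC, MDTH minus HPF -2.80, adjusted p = 5.78e-09). Epha6 and Epha3 were higher in HPF than in PFC by 2.71 (adjusted p = 1.69e-07) and 2.32 (adjusted p = 3.91e-08). Epha4 followed, at 9639 ± 2056 in PFC, 14852 ± 5245 in MDTH and 29412 ± 4873 in HPF (log2 difference 1.62, adjusted p = 3.64e-09 from PFC). Slit1 held 4080.3 ± 314 in PFC, 1933 ± 1018 in MDTH and 14904 ± 1577 in HPF (SD, n = 6 each; MDTH minus HPF -3.16, adjusted p = 1.83e-10), and Nrp2 exceeded PFC by 2.22 (adjusted p = 1.36e-05). The ligand Efna5 held 1656 ± 185 in PFC, 1298 ± 140.5 in MDTH and 231 ± 62.9 in HPF (SD, n = 6 each), lowest where these EphA receptors were highest. It was lower in HPF than in PFC at -2.87 (adjusted p = 1.61e-12) on the log2 scale and higher in MDTH than in HPF at 2.52 (adjusted p = 5.96e-13). Of the other ephrin-A ligands, Efna1 and Efna4 had their highest mean in HPF, Efna2 in MDTH and Efna3 in PFC. Sema3f was lower in HPF than in PFC at -2.88 (adjusted p = 3.72e-05).

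PFC was set apart by Ephb6 and Efnb2. Ephb6, an Eph receptor without kinase activity, held 11446 ± 1348 in PFC, 2835 ± 550.0 in MDTH and 2181 ± 238 in HPF normalized counts (SD, n = 6 each; MDTH minus PFC -2.03, adjusted p = 2.34e-10, HPF minus PFC -2.39, adjusted p = 1.10e-10). Efnb2 held 3776 ± 471 in PFC, 678 ± 349 in MDTH and 668 ± 200.4 in HPF (SD, n = 6 each; MDTH minus PFC -2.69, adjusted p = 9.49e-08, HPF minus PFC -2.54, adjusted p = 2.40e-07). All 6 PFC libraries lay above all others for both. The members with the most even levels were Sema3g, Sema4b, Ephb4 and Sema6c, whose tissue means differed by at most 1.12-fold. Dcc held 504 ± 78.7 in PFC, 508 ± 165 in MDTH and 598 ± 122 in HPF (SD, n = 6 each), and no tissue pair passed for it (adjusted p = 0.862, 0.211 and 0.335).

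**Figure D5:**
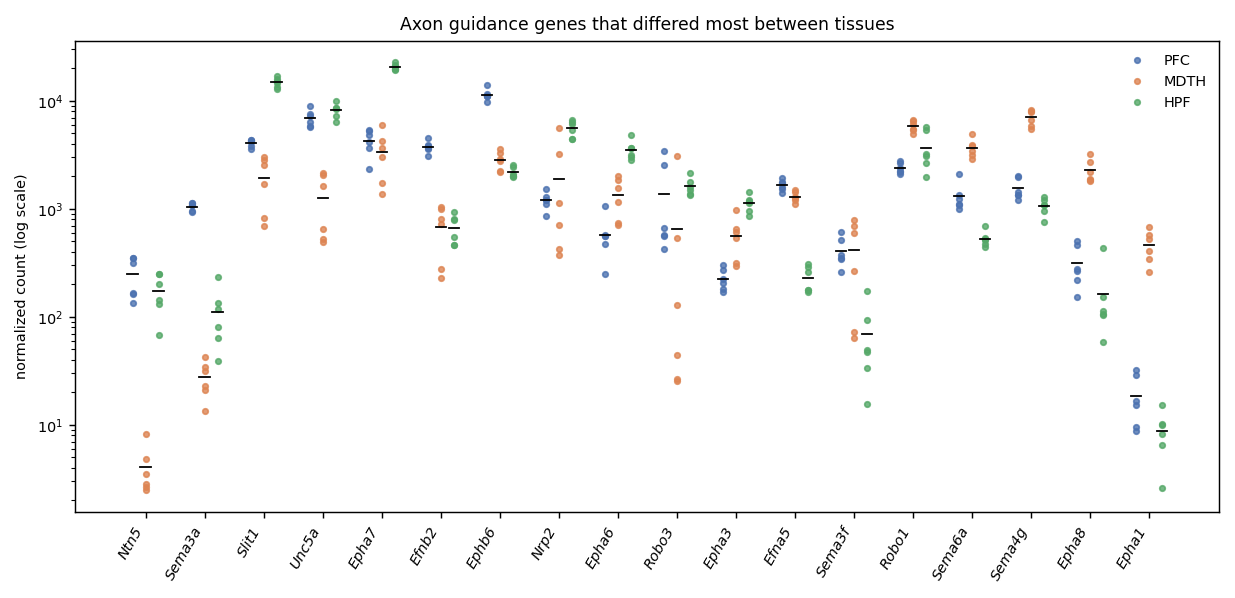
Normalized counts (y axis, log scale) of the axon guidance genes with the highest and lowest log2 differences between tissues (x axis), ordered by the level in MDTH against the higher of the other tissues; points are the 6 libraries of a tissue and lines their mean. Ntn5 and Sema3a at the left are lowest in MDTH, and Epha8 and Epha1 at the right are highest there.

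Per length, the order of the members also changed with the tissue. Divided by the exon bases annotated for each gene, Epha4 held 3652 ± 605 normalized counts per kilobase in HPF (SD, n = 6), the highest of the 68 there, and Sema7a 2648 ± 383. In MDTH, Sema7a at 1852 ± 759.7 and Epha4 at 1844 ± 651 per kilobase led, closer than their spread. Ephb6 led in PFC, at 3034 ± 357, followed by Sema7a at 2627 ± 428 per kilobase. The lowest per length were Epha1 in PFC and HPF and Ntn5 in MDTH. Exon bases count every annotated transcript, so genes with long unused exons read too low on this scale.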

How the data were processed

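The authors deposited a table of signal values, described by its name as DESeq normalized counts, with 1 value per gene in each of 18 libraries. STAR, Salmon and DESeq2 were named without version or role, per the submitters' processing notes, and libraries were made with a stranded Illumina mRNA kit, per the labels' protocols. Build, annotation and whether counting used strand are not given in the sources used here. Column totals were 50828589 to 59634490 normalized counts. Depth was estimated by taking the most frequent low value of a library as the worth of 1 read. Whole reads could not be recovered for all genes, so no test that needs counts was run. Of the identifiers, 48058 were found in GENCODE M21, and 0 columns were left without a sample.

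Separate limma fits (version 3.58.1, R 4.3.3) were made for each tissue on its 6 libraries, in log2(normalized count + 1), for genes with a mean of at least 10, with a mean-variance trend, two-sided and with Benjamini-Hochberg adjustment over all genes. Tissue differences and interactions came from 1 fit to 18 libraries with 6 group means. The fits were also run on simulated counts with planted changes, where all genes had the same dispersion and libraries were independent. The real genes and libraries differ from that setting, so the run says nothing on the calls given here. Within groups, log2 values of library pairs correlated at 0.954 to 0.977, with 0 identical pairs. The titles number the performers within each group, and the name numbers differ within a group, but no label states that these numbers are animals. The p-values reflect only how these libraries spread, which may be technical. Libraries with the same name number deviated together across tissues (correlations 0.35 to 0.61 over 11 pairs), so a fit with that number as a block was run beside the tissue contrasts. The members, gene lists and the rule for named genes were chosen with earlier results of these data known. The rule took, for each performance comparison, up to 14 members that passed or the 4 with the smallest p, and the smallest p of each family. It took the 5 highest and 5 lowest tissue differences, up to 8 interactions, and 4 partners of each list per tissue. Some genes that the rule took are left out here. Further members are examples of their family. Python 3.11.15, pandas 2.3.3 and matplotlib 3.10.9 prepared tables and figures.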

Additional observations from a re-analysis of the deposited data

Results flagged for a closer look

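The 24 performance differences named above that differed between tissues in limma's interaction test are collected here, as log2 interactions with 3 libraries in each of the 4 groups compared. For MDTH minus PFC they were Unc5a -1.40, Sema4f -0.85, Ephb1 -1.18, Slit2 -3.09, Nrp1 -1.13, Slit1 -1.48, Sema4a -1.26 and Nrp2 -2.30 (adjusted p = 0.00218 to 0.0397). In MDTH minus HPF they were Unc5a -1.66, Epha4 1.35, Sema5b 2.00, Sema3f -3.94, Epha5 1.06, Efnb2 -2.07, Slit1 -1.41 and Sema4f -0.57 (adjusted p = 0.000166 to 0.00761). In HPF minus PFC they were Efna5 0.89, Epha5 -1.20, Epha4 -0.78, Slit2 -2.12, Robo4 1.14, Sema4g 0.85, Plxnb2 0.75 and Efna2 0.77 (adjusted p = 0.00326 to 0.0396). In 5, 8 and 2 of the 8 in each contrast, the call held in all 18 fits with 1 library left out. In MDTH minus PFC, the others passed in fewer of the 18 fits: Slit1 in 16 (highest adjusted p = 0.0578, without MDTH low replicate 2), Sema4a in 14 (highest adjusted p = 0.0671, without MDTH low replicate 2) and Nrp2 in 4 (highest adjusted p = 0.112, without MDTH low replicate 2). In HPF minus PFC, the others passed in fewer of the 18 fits: Epha4 in 16 (highest adjusted p = 0.0561, without HPF high replicate 3), Slit2 in 12 (highest adjusted p = 0.0659, without HPF low replicate 1), Robo4 in 15 (highest adjusted p = 0.0708, without HPF high replicate 3), Sema4g in 8 (highest adjusted p = 0.0938, without PFC low replicate 3), Plxnb2 in 9 (highest adjusted p = 0.1005, without PFC high replicate 2) and Efna2 in 7 (highest adjusted p = 0.106, without HPF high replicate 3). Groups of 3 libraries are too small for a check of single outlying samples.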

How the results depend on the processing

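No named difference reversed its sign under any alternative run. Of the alternative values for named genes, 1756 stayed on their side of the threshold, 120 lost the call and 10 gained one. In PFC, 1 member passed, beside 5.85% of all genes. With a pseudocount of 10 (5.88% of all genes), no filter on low values (2.74%) or no mean-variance trend (0.289%), 0 members passed. The title number as replicate block gave 0 members and 0 of all 17991 genes tested. Equal totals gave 4 members (8.25% of all genes) and all 18 libraries in 1 fit gave 4 (13.9%). In MDTH, where 27 passed beside 25.0% of all genes, 16 did with no mean-variance trend, beside 17.3%. With the title number as replicate block 17 passed, beside 13.6%. The other settings gave 26 to 31, beside 14.4% to 29.7% of all genes. The title numbers are not known to pair the groups. Deviations of high and low libraries with the same title number correlated at -0.13 to 0.09, which cannot settle pairing with 3 libraries in a group. In HPF, 6 passed with all 18 libraries in 1 fit, beside 1.45% of all genes, and 0 under every other setting. For HPF minus PFC interactions, where 8 passed beside 9.14% of all genes, 5 passed with no filter, beside 3.85%. The name number as replicate block gave 14, beside 13.3%, and changed no call of a named gene. With 1 library left out, the range was 0 to 4 for PFC, 10 to 27 for MDTH, and 0 to 0 for HPF. They were 39 to 45, 46 to 53 and 38 to 45 for the tissue pairs MDTH and PFC, MDTH and HPF, and HPF and PFC, and 5 to 14, 18 to 27 and 2 to 10 for their interactions. In MDTH the lowest counts were 10 without low replicate 3, 12 without low replicate 2, 13 without high replicate 2 and 16 without high replicate 3, and 8 of the 27 members passed in all 6 fits: Epha4, Epha6, Ephb1, Plxna1, Plxnd1, Sema6d, Slit2 and Unc5a. Such fits hold fewer samples and the share of all genes that passed fell as well, to 10.3% at the lowest. Counting error is largest for the lowest members, Efna4 at a mean of 16.3 and Epha2 at 49.8 normalized counts.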
